A study of Rattus norvegicus with 42 samples.

Results

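The glucocorticoid receptor (GR) left on rat liver chromatin at the trough between corticosterone (CORT) pulses was taken from 4 of the 42 libraries of the series. These were the 2 GR ChIP-Seq libraries of pulsatile CORT infusion at 180 min (NADIR_180) and the 2 of vehicle infusion (VEH), 1 of which was collected at 140 min and 1 at 180 min. All 3981 GR regions of the deposited table were compared, and none was selected beforehand. Every animal was a male Sprague Dawley rat that had been adrenalectomised, so that the infusion was its source of CORT, and had received dexamethasone after surgery and CORT in its drinking water until the day before infusion. The CORT animals were infused with hourly pulses of CORT carried in a soluble cyclodextrin, and the VEH animals with pulses of the carrier alone. The other groups used for comparison were the pulse peak at 140 min (PEAK_140) and constant CORT infusion at the same times (CONS_140 and CONS_180), with 2 libraries each. Each library was made from chromatin pooled over several rats, so that p-values measure the spread between pools and not between animals.

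GR is a nuclear receptor that resides mainly in the cytoplasm until it binds glucocorticoid. It then enters the nucleus and binds glucocorticoid response elements (GREs), in which 2 inverted half-sites are separated by a spacer of any sequence. In liver it is known for inducing genes of gluconeogenesis, amino acid breakdown, lipid handling and the circadian clock, and it leaves chromatin quickly when hormone is withdrawn. In whole liver, fewer cells with bound GR and less bound GR per cell cannot be told apart.

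The GR libraries held between 2051977 and 6715803 tags, with 3026250 and 2556380 for NADIR_180 and 3236498 and 3902296 for VEH. Values were given by the authors on a log2 scale after subtraction of input tags, and they fell into a lower mode below 0 and a set of steps above it. In each library at most 1.63% of regions lay between 0 and 0.25, and a value below 0 is described here as the lower mode. The library codes in the titles ran lower for the 4 pulsatile CORT libraries than for the other 6 GR libraries, VEH included. What the codes mark is not given in the sources used here, and any difference tied to them cannot be told apart from a difference between NADIR_180 and VEH. The tissue was checked in the pulsatile RNA-Seq libraries, where the 7 hepatocyte markers lay between 295 and 120714 CPM (reads scaled to the library total) and the 13 measured markers of other liver cells did not exceed 229 CPM. Krt7 was at 0 to 0.62 CPM, Krt19 did not pass the read filter and Pecam1 was not matched by name.

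The GREs below are those at which GR was higher at NADIR_180 than in VEH in the analysis that follows. They are shown so that these sites can be read as sequence, and they do not stand for the retained sites as a whole. Each is a match to the GRE motif, of the 14 named regions for which such a match was listed in the supplementary motif scan, written in the motif's orientation with positions 4 to 6 and 10 to 12, where the half-site cores lie, in capitals. All are in build rn6 and lie in the regions given with their strand.
Per1, chr10:55683421-55684046, plus strand: agaACAcgaTGT
Per1, chr10:55685632-55686257, plus strand: ggaACAtccTGT
Mt2A, chr19:11309691-11310316, plus strand: aggACAggcTGT
Usp2, chr8:48422955-48423673, plus strand: gggACAtttTGT
Zbtb16, chr8:53068834-53069500, plus strand: ggtACAgtgTGT
Cdkn1a, chr20:6352069-6352694, plus strand: ggcACAgtaTGT
Gpt2, chr19:22630831-22631456, plus strand: ggaACAtgcAGT
AABR07004100.2, chr1:124775856-124776481, plus strand: ggaACAgcaTGT
Zfp788, chr1:98210806-98211431, plus strand: ggaACAgcaTGT
AABR07034573.1, chr11:79117907-79118532, plus strand: agtACAttcTGT
Setd2, chr8:118801821-118802446, minus strand: ggaACAataAGT
The sites near AABR07004100.2 and Zfp788 carried the same letters. The matches of Gpt2 and Setd2 do not hold the full core ACANNNTGT. The other 3 listed matches were near AABR07026037.1, AABR07037998.1 and Srpx, of which the last pair also lack it. No match was listed for other raised regions named below, among them those near AABR07010589.1, Scp2, Stap2, Asip, Nr1i2 and Tat.

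GR at the nadir was low at most regions and called above VEH at a minority. Over all 3981 regions the median value was 1.33 in NADIR_180 replicate 1 and -0.48 in replicate 2, against -0.65 and -0.86 in the VEH libraries of 140 and 180 min. At PEAK_140 the medians were 4.04 and 3.69. The median of nadir replicate 1 thus lay between VEH and the peak, whereas that of replicate 2 was in the lower mode, as were both VEH medians. The median difference between NADIR_180 and VEH was 0.84 on the log2 scale, with quartiles of 0.20 and 1.60. Both nadir libraries exceeded both VEH libraries at 2526 regions (63.5%), and both lay below them at 156 (3.92%). Replicate 2 was below 0 at 2585 of the 3981 regions. At many of the 2526 the order was therefore one among values in the lower mode, and the count is not one of sites with detected GR. The lower mode held 34.4% of regions in replicate 1 and 64.9% in replicate 2, compared with 64.1% and 74.3% in VEH and 6.68% and 11.5% at PEAK_140.

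**Figure D1:**
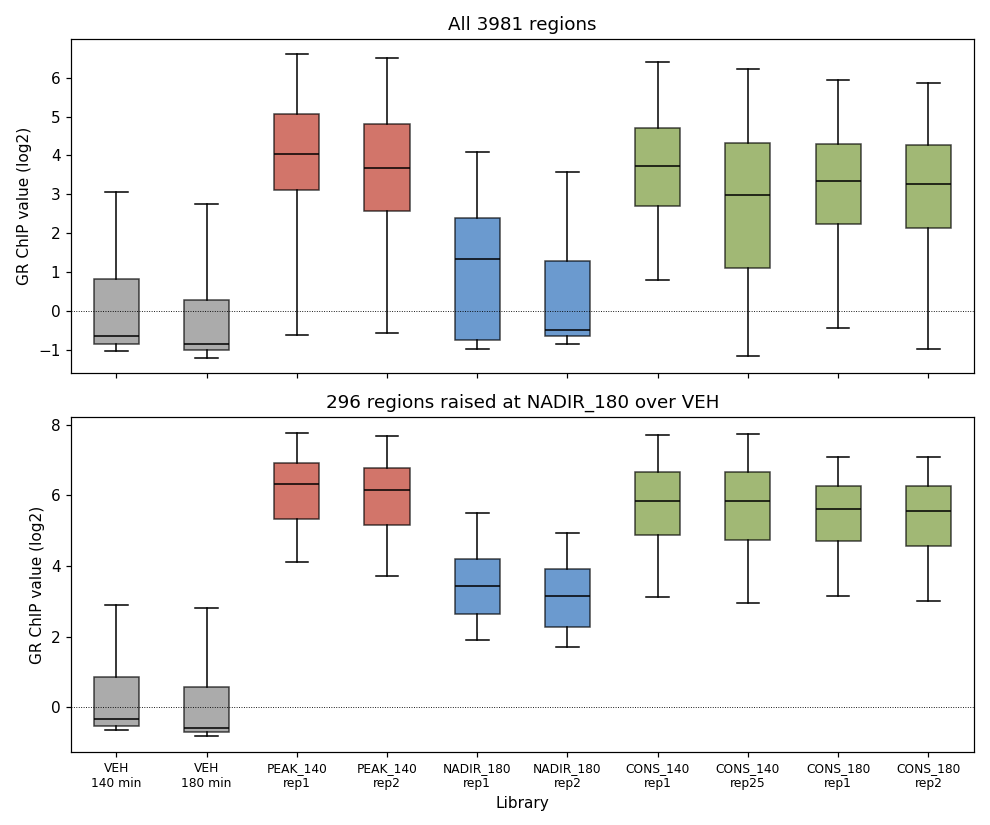
GR ChIP values (log2, vertical axis) in each of the 10 GR libraries for all 3981 regions (top) and for the 296 regions raised at NADIR_180 over VEH (bottom). Boxes give the quartiles and median and whiskers the 5th and 95th percentiles. At the raised regions the NADIR_180 medians (blue) lie between VEH (grey) and PEAK_140 (red). Over all regions the median of replicate 1 (1.33) does so, whereas that of replicate 2 (-0.48) is in the lower mode, as in VEH.

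At 296 regions GR was raised at NADIR_180 relative to VEH, which is 7.44% of the regions tested, and at 14 regions (0.352%) it was lowered. A call required more than a 1.5-fold change and an adjusted p under 0.05 from limma. The paper, which used DESeq2 with the same limits on fold change and adjusted p, reported no site significantly enriched over VEH at NADIR_180. Without adjustment, 595 regions were higher and 75 lower at p below 0.05. The raised regions were 1.43 to 6.82 higher than VEH on the log2 scale, with a median of 3.13 and a median standard error of 0.55, beside a median of 0.84 over all regions. Every raised region was above 0 in both nadir libraries, and 166 of them were in the lower mode in both VEH libraries (56.1%, against 53.0% of all regions). Both nadir libraries exceeded both VEH libraries at all 296, so that this order at a called region is a description and adds nothing to the call. These calls rest on the spread estimated over all 10 libraries. With the 4 libraries of NADIR_180 and VEH alone no region was called (392 were higher at unadjusted p below 0.05), as was the case when each library was centred on its own median (227 higher at unadjusted p below 0.05). With VEH, PEAK_140 and NADIR_180 alone, a fit added after the data were seen, 72 were called, 69 of them among the 296. A permutation of 2 against 2 libraries cannot give an exact two-sided p below 0.333.

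The 2 nadir libraries had the lowest correlation of the 5 groups and differed in how many sites were detected. Both were above 0 at 1089 regions, replicate 1 alone at 1521, replicate 2 alone at 307 and neither at 1064. Across the 3981 regions, which share the same 2 libraries and the same shrinkage, Pearson's r between them was 0.53 and Spearman's rho 0.63. The corresponding r was 0.56 for VEH, 0.63 for CONS_140, 0.77 for CONS_180 and 0.81 for PEAK_140. Of the 100 highest regions in either nadir library, 60 were shared, compared with 84 at PEAK_140 and 53 in VEH. A level of 3 or more was reached in both nadir libraries at 256 regions. At 172 regions replicate 1 was at 3 or more while replicate 2 was in the lower mode, and the opposite was seen at 14.

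At the raised regions the libraries lay closer together. The median value was 3.44 in replicate 1 and 3.14 in replicate 2, and replicate 1 was the higher at 206 of 296 regions. The median absolute difference was 0.56, against 1.20 over all regions, 133 raised regions differed by at most 0.5 and 62 by more than 1. Agreement between replicates is part of what the test rewards, so that the closeness describes the called regions and is not evidence for them. When replicate 2 was left out 745 regions were called, and when replicate 1 was left out 271, of which 276 and 211 were among the 296.

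**Figure D2:**
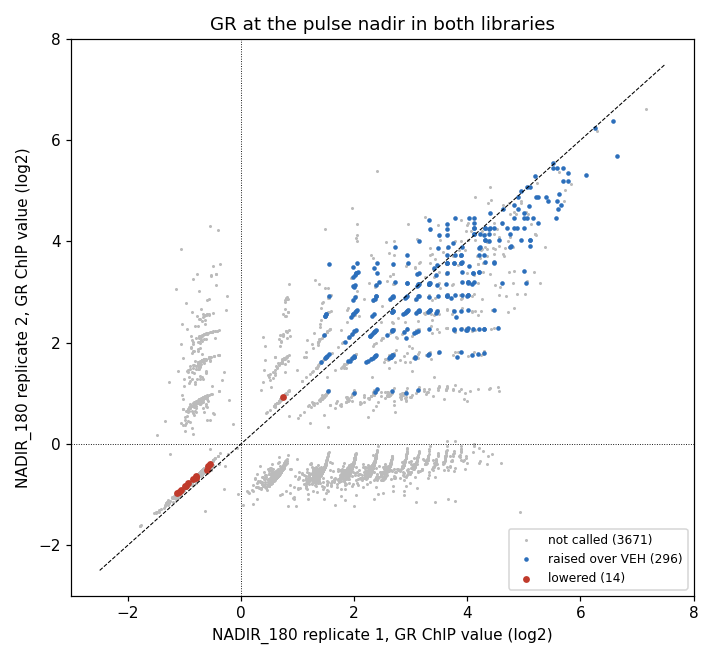
GR ChIP value (log2) of each of the 3981 regions in NADIR_180 replicate 1 (horizontal) and replicate 2 (vertical), with raised regions in blue, lowered regions in red and others in grey. The dashed line marks equal values and dotted lines mark 0. The band of grey points under 0 on the vertical axis belongs to the 1521 regions above 0 in replicate 1 alone, and all 296 raised regions lie above 0 on both axes.

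GR left at the nadir was concentrated at the sites with most GR at the pulse peak. When the regions were divided into deciles by their PEAK_140 mean, the share raised at NADIR_180 was 0% in the lowest decile, 1.51% in the fifth, 8.29% in the eighth, 12.3% in the ninth and 43.1% in the highest. In the highest decile the median was 3.35 in nadir replicate 1 and 2.64 in replicate 2, against 0.73 and -0.47 in VEH. In the ninth decile replicate 2 already had its median in the lower mode (-0.28), whereas replicate 1 was at 2.32. Of the 25 regions highest at PEAK_140, 20 were raised at NADIR_180, and of the 100 highest, 62. These shares are a description, since a difference of a given size passes the test more easily where tags are many and the values of all libraries were normalised together.

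**Figure D3:**
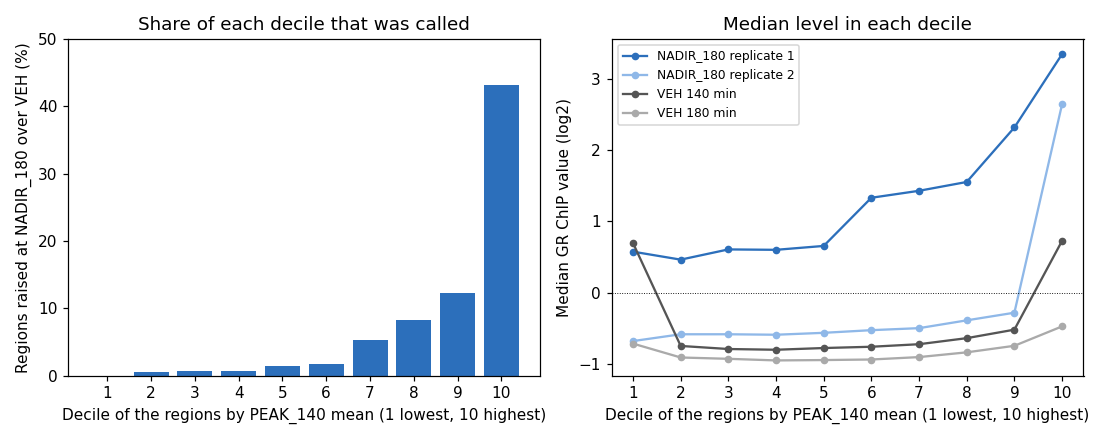
Regions were ordered by their PEAK_140 mean and divided into deciles (horizontal axis, 10 the highest). Bars on the left give the percent of each decile raised at NADIR_180 over VEH, from 0 to 43.1%, and lines on the right the median GR value (log2) of each nadir and VEH library, with nadir replicate 2 leaving the lower mode in the highest decile alone.

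High occupancy at the peak did not by itself bring a call at the nadir. In the highest decile the 172 raised regions had a median PEAK_140 value of 6.72 and the 227 others 6.37. The raised regions had medians of 4.01 and 3.57 in the 2 nadir libraries, whereas the others had 2.93 and 1.05, and replicate 2 was in the lower mode at 104 of those 227. The sets were divided by the nadir call itself, so that these nadir values describe the call and are no separate result. The others also had a larger median standard error (0.78 against 0.48) and a higher median in VEH (0.50 against 0.22). A region without a call may therefore still have kept GR. An intronic site of Ece1, the gene of an endothelin-converting enzyme, reached 7.67 and 7.19 at PEAK_140 and was at 1.55 and -0.17 at NADIR_180 (chr5:156296831-156297456). At the Got1 promoter, 413 b before the start of this aspartate aminotransferase gene, the nadir values of 4.56 and 3.91 stood beside VEH values of 3.43 and 3.17. An intronic site of Zbtb16 at chr8:53055202-53055827 was at 3.65 in nadir replicate 1 and 0.06 in replicate 2. These 3 sites were chosen after their values were seen, among the 38 of the 100 highest PEAK_140 regions that were not raised.

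Nearly all retained sites held far less GR than at the peak. GR was higher at PEAK_140 than at NADIR_180 at 273 of the 296 raised regions (92.2%, against 68.8% of all regions), lower at 1 (against 0.452% of all regions) and not called at 22. The median fall from peak to nadir was 2.76 on the log2 scale at the raised regions and 3.20 over all. GR was higher at CONS_180 than at NADIR_180, at the same time of infusion, at 216 raised regions (73.0%, against 49.6% of all), by a median of 2.09. The raised regions were chosen with the NADIR_180 values that enter these differences, and the counts are therefore descriptions.

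The 15 regions with the largest difference from VEH had nadir values of 3.50 to 6.64. The largest was at chr2:198589992-198590387, intergenic, 1466 b downstream of the start of AABR07012587.1. Its nadir values were 6.64 and 5.70 against -0.55 and -0.75 in VEH, a difference of 6.82 ± 1.46 (SE, n = 2 against 2 libraries, adjusted p = 0.0225). Both nadir libraries were above both VEH libraries, but PEAK_140 replicates gave -0.31 and 5.13, VEH carried a peak call there in spite of its values, and the call was lost when NADIR_180 replicate 1 or either VEH library was left out (adjusted p of 0.0724 to 0.115). It was the single raised region that was lower at PEAK_140 than at NADIR_180.

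The region with the next largest difference had a smaller standard error. At chr2:141792853-141793478, 70673 b before AABR07010589.1 with the nearest protein-coding start, that of Foxo1, 341931 b away, the nadir values were 4.95 and 5.00, VEH -0.08 and -0.29 and PEAK_140 8.01 and 8.05. The difference from VEH was 5.16 ± 0.28 (adjusted p = 9.38e-05), and a neighbouring site at chr2:141807082-141807707 was raised by 4.59 ± 0.36. In the intron of Scp2, which encodes a sterol carrier protein of peroxisomes, GR was at 4.82 and 4.45 at the nadir and at -0.24 and -0.45 in VEH (chr5:127657090-127657720, difference 4.98 ± 0.36). Scp2 had 6.60 and 6.77 at PEAK_140, so that the nadir libraries stood nearer to the peak than to VEH on this scale. Both VEH libraries were in the lower mode at the Scp2 site and at both AABR07010589.1 sites, as at 166 of the 296 raised regions. Values with few tags are shrunken, so that the size of these differences and their standard errors rest partly on the lower mode.

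Several other leading sites lay near genes of known function. A site 1313 b before Stap2, a signalling adaptor gene, was at 4.30 and 4.13 at the nadir and -0.33 and -0.54 in VEH (chr9:11062980-11063605). The site downstream of the start of Asip, the agouti signalling protein gene, was at 4.12 and 4.25 against -0.18 and -0.39 (chr3:150581492-150582117), and that 7087 b before Ppp1r15b, which encodes a subunit of an eIF2-alpha phosphatase, at 3.63 and 4.34 against -0.37 and -0.58 (chr13:49925754-49926382). The groups did not overlap at any of the 3, which held at all 296 raised regions. An intergenic site at chr16:60397776-60398451 had Ppp1r3b, a glycogen-targeting subunit gene, as its nearest protein-coding start at 28448 b and was raised by 4.75 ± 0.39. The remaining leading sites were nearest to RF00026, AABR07012040.1, AABR07043897.1, RF00400, AABR07064312.1, AABR07062157.1 and AABR07062544.1, with differences of 4.40 to 4.89.

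**Figure D4:**
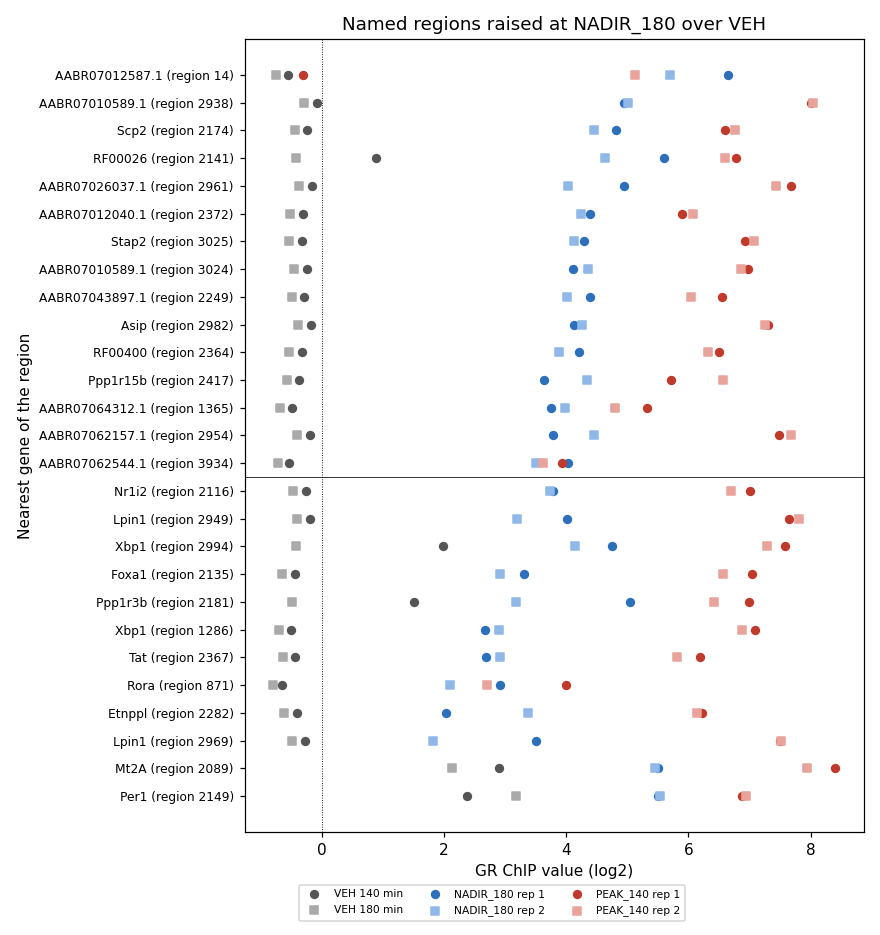
GR ChIP values (log2, horizontal axis) of the 15 regions with the largest NADIR_180 difference from VEH (above the line) and of 12 raised regions near listed genes (below it), each marked by its nearest gene. Points are single libraries of VEH (grey), NADIR_180 (blue) and PEAK_140 (red). Blue points lie right of the grey points in every row, and left of the red points except at AABR07012587.1, AABR07062544.1 and Rora, where they overlap or exceed them.

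Some retained sites were as high at the nadir as at the peak. At chr4:182106482-182107142, far from any protein-coding start, nadir values of 4.04 and 3.50 stood beside PEAK_140 values of 3.93 and 3.62, and the difference was 0.00 ± 0.52 (adjusted p = 0.996). At the promoter of Tbce, a tubulin folding cofactor gene, the nadir was at 3.81 and 2.51 and the peak at 1.69 and 2.43 (chr17:53983003-53983530). For Setd2, which encodes a histone H3 lysine 36 methyltransferase, a site 942 b before the start was at 3.09 and 2.86 at the nadir and 2.57 and 2.86 at the peak (chr8:118801821-118802446). A site 2282 b past the start of AABR07057877.1 was at 3.40 and 3.47 at the nadir and at 4.22 and 1.98 at the peak. The 4 differences between peak and nadir had adjusted p from 0.224 to 0.996, which does not show that levels were equal, and the calls over VEH were lost without NADIR_180 replicate 1 at Tbce and Setd2 (adjusted p of 0.15 and 0.0596), without VEH replicate 1 at Setd2 (0.116) and without VEH replicate 2 at Tbce and AABR07057877.1 (0.243 and 0.0679).

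Genes induced by glucocorticoids in textbooks were represented at 10 of their 92 regions (10.9%, against 7.44% of all regions), near 8 of 28 genes with a region, and 2 were lowered (against 0.352% of all). The median difference over the 92 regions was 0.91, beside 0.84 over all 3981. Per1, a clock gene, kept GR at both of its regions. The site 3317 b before its start was at 5.51 and 5.54 at the nadir, 2.38 and 3.17 in VEH and 6.88 and 6.94 at PEAK_140 (difference from VEH 2.75 ± 0.33, adjusted p = 0.00186), and that 1106 b before the start was at 5.16 and 4.46 against 3.09 and 2.11. Both nadir libraries were above both VEH libraries at each site, and VEH was itself above 0. Mt2A, which encodes a metallothionein, showed the same order 1263 b before its start, with 5.51 and 5.45 at the nadir, 2.90 and 2.13 in VEH and 8.40 and 7.94 at the peak.

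Tat and Etnppl, which encode enzymes of tyrosine and phosphoethanolamine breakdown, had lower nadir values than Per1 and Mt2A but larger differences from VEH. The Tat site 5434 b before the start was at 2.68 and 2.91 at the nadir, in the lower mode in both VEH libraries and at 6.19 and 5.81 at PEAK_140 (chr19:41691351-41691976, difference from VEH 3.33 ± 0.46). The site in the last intron of Etnppl was at 2.03 and 3.37 at the nadir and 6.22 and 6.14 at the peak. Near Lpin1, the gene of a phosphatidate phosphatase, 2 of 4 regions were raised. The first, 20308 b before the start, was at 4.01 and 3.19, and the second, 14666 b before it, at 3.50 and 1.82, against 7.49 to 7.82 at the peak. Zbtb16, a transcription factor gene, Cdkn1a, the p21 gene, and Igfbp1, which encodes an insulin-like growth factor binding protein, were raised by 2.11 ± 0.48, 2.10 ± 0.31 and 2.51 ± 0.58.

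For gluconeogenesis and amino acid breakdown, 7 of 62 regions were raised (11.3%, against 7.44% of all) and 1 was lowered (against 0.352% of all). The median difference was 0.73, below the 0.84 over all regions. Besides Tat and Etnppl these included regions near Gpt2, an alanine aminotransferase gene, the amino acid transporter genes Slc38a4 and Slc7a2, and Ppp1r3b. The Ppp1r3b site, at chr16:60595238-60595869 and 168079 b before the start, is not the one given above. It differed between the nadir libraries, with 5.04 in replicate 1 and 3.18 in replicate 2. Its call was lost without NADIR_180 replicate 1 (adjusted p = 0.107) and without VEH replicate 2 (adjusted p = 0.0978). In the lipid metabolism list, the 2 Lpin1 sites were the raised ones among 32 regions (6.25%, against 7.44% of all), with a median difference of 1.31.

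Of 15 regions near circadian clock genes 4 were raised (26.7%, against 7.44% of all regions), with a median difference of 1.54 against 0.84 over all. They were both Per1 sites, 1 near Bhlhe40, which encodes a clock repressor, and 1 in an intron of Rora, a nuclear receptor gene. The Rora site was at 2.92 and 2.09 at the nadir and at 3.99 and 2.70 at the peak, and its call over VEH was lost without NADIR_180 replicate 1 or either VEH library (adjusted p of 0.0872 to 0.127). Hepatocyte transcription factor genes had 4 of 38 regions raised (10.5%, against 7.44% of all), with a median difference of 0.95. In the first intron of Nr1i2, the gene of the pregnane X receptor, the nadir values were 3.78 and 3.74 against -0.26 and -0.47 in VEH (chr11:65028330-65028955, difference 4.12 ± 0.37). The 2 sites before Xbp1, which encodes a factor of the unfolded protein response, were raised by 3.67 ± 0.70 and 3.39 ± 0.61, and the site assigned to Foxa1, 110972 b from its start, by 3.66 ± 0.60. The first Xbp1 call was lost without NADIR_180 replicate 1 (adjusted p = 0.0736). Growth brakes and kinase feedback genes had 3 of 38 regions raised (7.89%, against 7.44% of all), near Cdkn1a, Igfbp1 and Igfbp2. In this list 1 region was lowered (against 0.352% of all), and the median difference was 0.64 against 0.84 over all regions. The lists were chosen with earlier results of these data known, and nothing was tested over them.

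Retained sites were mostly intergenic or intronic, as were the regions as a whole. Of the 296, 148 were intergenic, 115 intronic, 19 at promoters, 9 at transcript ends and 5 in exons. The intergenic share was 50.0% against 48.2% of all regions, and the intronic share 38.9% against 38.5%. Transcript ends made up 3.04% against 2.21%, and exons 1.69% against 2.71%. The promoter share was 6.42% against 8.36%, and sites within 1 kb of a start made up 8.11% against 11.9%. The median distance to the nearest annotated start was 14356 b, compared with 14293 b over all regions. None of these differences was tested. The 296 regions had 277 distinct nearest genes, and 17 of these had 2 or more raised regions. Slc45a1 and Tsku, a gene of a secreted leucine-rich protein, had 3 each.

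Of the raised regions at or near a start, 4 are given with their sequence. Kng1, the kininogen gene, was at 5.09 and 4.71 at the nadir and -0.26 and 1.73 in VEH (chr11:81444295-81445005, difference 4.16 ± 0.64). Asgr1, which encodes a subunit of the asialoglycoprotein receptor, was at 3.44 and 3.33 against -0.54 and -0.73 (chr10:56661876-56662614), and PEAK_140 at 4.45 and 4.99 was not far above. The region over the first exon of Orm1, an acute phase protein gene, was at 3.48 and 2.91 against -0.45 and -0.65 (chr5:79179238-79179865), and that before Lcat, the gene of an enzyme that esterifies cholesterol in plasma, at 2.91 and 2.89 against -0.53 and -0.72 (chr19:37916687-37917312). All 4 were called (adjusted p of 0.0024 to 0.00664). Both nadir libraries were above both VEH libraries at each, as at all 296 raised regions and at 63.5% of all regions, a share that includes orders among values in the lower mode. They were chosen after their values were seen. At the As3mt promoter, a region with a VEH peak, 6.25 and 6.24 at the nadir exceeded 4.05 and 4.70 in VEH.

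The promoter sequence of these 4 genes is shown because the raised region covers or adjoins it. The 250 bases before the start are from RefSeq in build GRCr8, which differs from the rn6 build of the regions, and the start used there may differ from that of the deposited annotation. The letters ACANNNTGT, the GRE core, which reads the same on both strands, were searched and their fixed letters are in capitals. Of the 16 raised regions within 300 b of a start, 10 were matched to a RefSeq promoter and 2 of those promoters, Orm1 and Lcat, held the core. It was present in 5.81% of all 33469 promoters. The half-site AGAACA, searched on both strands, was in none of the 10 and in 17.5% of all promoters. A match is a description, and its absence says only that the letters are not in this window.
Orm1, chr5:81788259-81788508, plus strand: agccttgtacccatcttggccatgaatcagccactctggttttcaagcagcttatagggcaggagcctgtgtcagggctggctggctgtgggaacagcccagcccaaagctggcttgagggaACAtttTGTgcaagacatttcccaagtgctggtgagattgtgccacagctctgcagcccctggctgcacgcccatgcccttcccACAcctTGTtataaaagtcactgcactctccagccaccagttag
Lcat, chr19:50748065-50748314, minus strand: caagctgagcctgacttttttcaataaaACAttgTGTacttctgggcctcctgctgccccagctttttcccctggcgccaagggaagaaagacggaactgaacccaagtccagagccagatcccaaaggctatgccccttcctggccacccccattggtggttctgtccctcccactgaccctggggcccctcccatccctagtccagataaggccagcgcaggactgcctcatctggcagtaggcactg
Asgr1, chr10:55274229-55274478, plus strand: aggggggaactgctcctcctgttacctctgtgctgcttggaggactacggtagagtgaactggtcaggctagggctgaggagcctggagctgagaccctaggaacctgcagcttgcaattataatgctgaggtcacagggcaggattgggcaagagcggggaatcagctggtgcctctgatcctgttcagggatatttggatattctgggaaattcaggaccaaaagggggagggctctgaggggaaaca
Kng1, chr11:91340149-91340398, minus strand: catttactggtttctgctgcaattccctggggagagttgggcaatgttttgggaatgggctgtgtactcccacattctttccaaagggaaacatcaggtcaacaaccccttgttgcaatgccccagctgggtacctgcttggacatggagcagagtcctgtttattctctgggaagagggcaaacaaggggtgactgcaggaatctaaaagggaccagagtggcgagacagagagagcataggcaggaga

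The peaks that the authors called for NADIR_180 formed a different set from the raised regions. Their list held 73 peaks, against 118 for VEH and 3210 for PEAK_140. Of the 73, 47 (64.4%) overlapped a VEH peak, which was 39.8% of the VEH list, and 21 (28.8%) overlapped a PEAK_140 peak. Among the 3981 regions, 72 carried the NADIR_180 peak flag, and 5 of them were raised over VEH. Both nadir libraries were in the lower mode at 25 of the 72, 1 was at 18, and both were above 0 at 29, whereas both VEH libraries were above 0 at 59. The median difference from VEH at these regions was -0.94.

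Many of the listed peaks lay together. The stretch chr1:11905570-11916232, nearest to RF00002, an Rfam model of 5.8S ribosomal RNA, and RF01518, held 10 of the 72 regions, where nadir means ranged from 2.98 to 6.89 and VEH means from 2.83 to 6.22. A cluster of 4 regions at chr14:46643585-46655940 was near Rn5-8s, also a 5.8S ribosomal RNA gene, with nadir means of 3.00 to 5.48 and VEH means of 2.50 to 5.85. At the highest VEH region of the first cluster the nadir libraries were at 7.16 and 6.62 and VEH at 5.98 and 6.47, and at that of the second cluster 5.72 and 4.80 against 5.75 and 5.94. Neither difference was called (adjusted p of 0.588 and 0.686). Of the other regions with the highest VEH values, that near Fgf8 was at 2.33 and 3.68 in the nadir and 4.16 and 7.36 in VEH, and an intronic one of AABR07044106.1 at 4.35 and -0.40 against 6.02 and 5.17.

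Among the listed peaks without a VEH peak, regions near AABR07004100.2, Zfp788 and AABR07034573.1, whose GREs are given above, were high in every CORT library and raised at the nadir. AABR07004100.2 was at 6.58 and 6.37 at NADIR_180, 2.92 and 3.33 in VEH and 8.28 and 8.31 at PEAK_140 (difference from VEH 3.36 ± 0.22, adjusted p = 0.000278). Zfp788 was at 5.20 and 5.29 against 3.09 and 2.63, and AABR07034573.1 at 6.10 and 5.30 against 3.83 and 3.45. Some others were above 0 in 1 nadir library alone. The region near Fam13c was at 4.92 in nadir replicate 1 and -1.35 in replicate 2, and a region 91 b before AABR07046778.1 at 3.78 and -1.13, with adjusted p of 0.521 and 0.368. Of the 12 such regions followed, these 3 were the ones called.

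**Figure D5:**
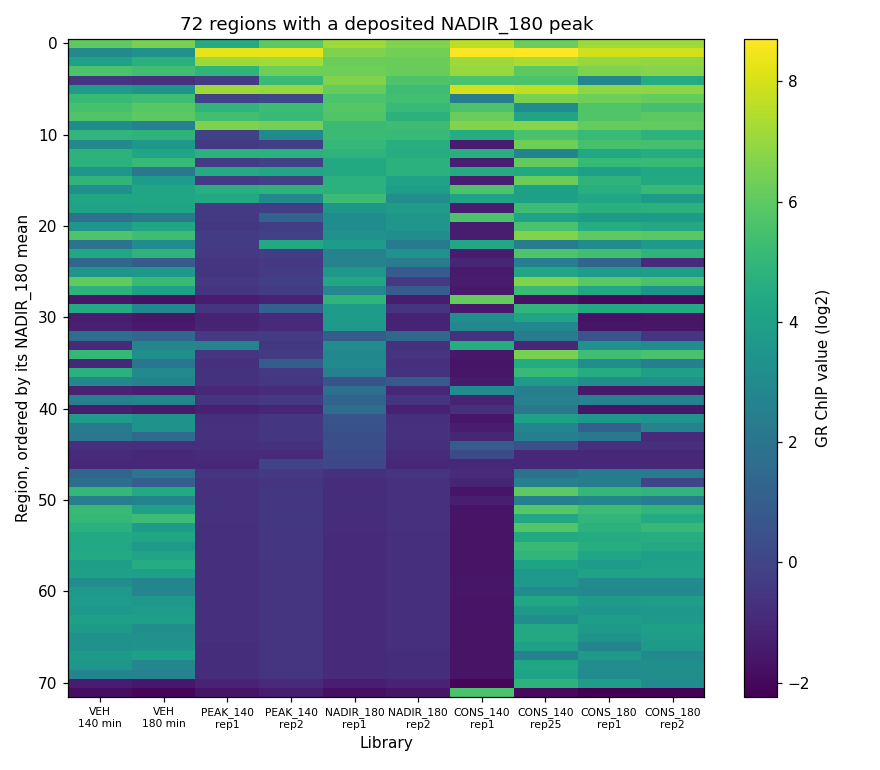
GR ChIP values (log2, colour) of the 72 regions flagged with a NADIR_180 peak by the authors, in rows ordered by their NADIR_180 mean, across the 10 GR libraries. Both nadir libraries are in the lower mode (dark) at 25 regions, all 25 of which are also dark in both PEAK_140 libraries and 24 in CONS_140 replicate 1.

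Regions lowered at the nadir followed a pattern across libraries that was not limited to NADIR_180. Of the 14, 13 were in the lower mode in both nadir libraries and 12 in both PEAK_140 libraries, 7 were so in CONS_140 replicate 1, and none was in both CONS_180 libraries. A VEH peak was flagged at 12 of them. The largest fall was at chr3:41772-41921, near AABR07051177.1, with -0.85 and -0.69 at the nadir, 5.04 and 5.32 in VEH and -0.69 and -0.47 at the peak (difference -5.95 ± 1.53, adjusted p = 0.0496). Its call was lost without any 1 of the NADIR_180 and VEH libraries (adjusted p of 0.0843 to 0.216), as was that at Smpdl3a (0.0843 to 0.229). Falls of 5.27 to 4.64 followed near AABR07020651.1, again AABR07051177.1, AABR07037960.1 and Smpdl3a. Errfi1, a feedback inhibitor of the epidermal growth factor receptor, had an intronic region at -0.80 and -0.64 against 4.20 and 2.69 in VEH. Over all 116 regions with a VEH peak the median was 0.55 and -0.56 in the nadir libraries, -0.62 and -0.44 at PEAK_140, 3.55 and 3.36 in VEH and -0.07 and 2.83 in CONS_140 replicates 1 and 25. CONS_140 replicate 1 thus stood with the pulsatile libraries at these regions, and the part of library processing in the lowered calls was not tested.

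Pck1, Lrrc39 and AABR07026015.1 were the lowered regions that were above 0 in a nadir library or at PEAK_140. In an intron of Pck1, which encodes the gluconeogenic enzyme phosphoenolpyruvate carboxykinase, GR was at 0.74 and 0.92 at the nadir, 3.26 in both VEH libraries and -0.49 and -0.29 at PEAK_140 (chr3:171214474-171214623, difference -2.43 ± 0.60, adjusted p = 0.0421). The region near Lrrc39 was at -0.55 and -0.39 at the nadir, 1.42 and 2.01 in VEH and 4.42 and 4.54 at the peak, and that near AABR07026015.1 at -0.59 and -0.44, 2.92 and 2.68, and 4.52 and 1.94. Leaving out CONS_140 replicate 1 or replicate 25 raised the count of lowered regions to 50 and 56, and without VEH replicate 1 or 2 it was 4 and 5. It was 9 without PEAK_140 replicate 1, PEAK_140 replicate 2 or CONS_180 replicate 2. When the 116 VEH peak regions were left out before the fit, an alternative added after the data were seen, 2 regions were lowered and 296 were raised, 294 of them among those called before.

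Calls near the threshold were less clear. Regions near AABR07037998.1, Srpx and Kalrn were just inside it, with differences of 2.50, 1.98 and 2.75 and adjusted p of 0.0487 to 0.0496. Those near AC115369.1, Serpind1 and AABR07013165.1 were just outside, with differences of 2.41, 2.59 and 2.01 and adjusted p of 0.0505 to 0.0506. For Serpind1, the heparin cofactor II gene, the nadir libraries gave 2.91 and 1.02 and both VEH libraries were in the lower mode.

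The RNA of the nearest genes was compared between pulsatile CORT and pulsatile VEH at 180 min, in 3 libraries each. Of 14092 genes tested, 252 were raised (1.79%) and 344 lowered (2.44%) by edgeR's quasi-likelihood test. Of the 277 nearest genes of raised regions, 191 were tested, and 37 of them were raised (19.4%) and 1, Gne, was lowered. Among 1849 tested nearest genes of any region, 145 were raised (7.84%). Genes nearest to regions in the highest decile at PEAK_140 that were not raised at the nadir had 24 of 134 raised (17.9%), close to the share at retained sites, and the difference was not tested. Of the 252 raised genes 37 (14.7%) were nearest to a retained site.

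Usp2, which encodes a ubiquitin-specific protease, had 2.72, 0.57 and 3.73 CPM in VEH and 32.5, 31.7 and 22.9 CPM with CORT (log2 fold change 3.64 ± 0.35, adjusted p = 2.04e-05). Lpin1 rose from 88.9, 76.1 and 111.6 CPM to 819.2, 638 and 837 CPM, a log2 fold change of 3.05 ± 0.25. CORT libraries were above VEH libraries for both genes without overlap, which describes genes already called, and the share of all genes with this order was not counted. Per1, Zbtb16 and Etnppl rose by 2.74, 2.74 and 2.66, and Gpat3, which encodes a glycerol phosphate acyltransferase, Rasgef1b, Cdkn1a and Tat by 2.81, 2.00, 1.72 and 1.41. AABR07027072.1 and Ptp4a1, a phosphatase gene, rose by 3.46 and 2.22 from VEH levels of at most 1.63 CPM. Nr1i2 and Xbp1 rose by 0.97 and 0.98.

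Genes at several strongly retained sites were not called in RNA. Scp2 was at 1086, 961 and 975 CPM in VEH and 892, 915 and 923 CPM with CORT (log2 fold change -0.15 ± 0.11, adjusted p = 0.499). Stap2, Ppp1r15b, Foxa1 and Rora had log2 fold changes of 0.31, 0.31, 0.15 and -0.26 and adjusted p of 0.373 to 0.85. Mt2A, with 72.5, 209.004 and 14.1 CPM in VEH and 359, 287 and 75.1 CPM with CORT, overlapped between groups (adjusted p = 0.315), as did Ppp1r3b (adjusted p = 0.118). Tsku had 25.5, 2.08 and 7.68 CPM in VEH and 30.6, 39.3 and 35.3 CPM with CORT and missed the threshold (adjusted p = 0.0641). At the promoters, Kng1, Asgr1 and Orm1 had log2 fold changes of -0.40, 0.17 and 0.76 with adjusted p of 0.409 to 0.721. Serpina12 and RGD1559578 were listed at 0 in all 3 VEH libraries and at 0.25 to 0.38 CPM with CORT. Of the genes near lowered regions Pck1 was raised, by 1.00 ± 0.17.

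Elongating RNA polymerase (pSer2 Pol2) over the nearest genes was compared between NADIR_180 and VEH in the same design. Of 214 nearest genes of raised regions with tags, 0 were called (limma), with 21 at unadjusted p below 0.05. Over all 16568 genes 0 were raised and 1 was lowered (0.00604%), with 233 at unadjusted p below 0.05. At PEAK_140, 21 of the 214 were raised over VEH and none lowered, against 61 raised and 97 lowered of all 16568 genes. Of 1963 nearest genes of any region, 53 were raised and 38 lowered at PEAK_140. At NADIR_180, 96 of these 1963 were at unadjusted p below 0.05 by limma. The comparisons share the VEH libraries. Etnppl was at 6.56 and 6.03 at the nadir, 4.71 and 2.97 in VEH and 8.99 and 9.37 at the peak. Orm1 was at 7.89 and 8.46 against 6.34 and 5.65, and Kng1 at 11.0 and 11.1 against 9.72 and 9.44. These 3 were among the nearest genes with the largest nadir differences, and none was called (limma adjusted p of 0.492 to 0.495). Lpin1 was at 6.57 and 6.22 at the nadir and 7.53 and 5.85 in VEH, although the peak was at 11.2 and 11.0, and Tat at 11.4 in both nadir libraries and 12.1 in both VEH libraries.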

How the data were processed

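GR and pSer2 Pol2 values were deposited by the authors on a log2 scale per region and library. Tags had been trimmed to 50 b (Trimmomatic 0.36), aligned to rn6 and counted with HOMER 4.9.1, and input tags subtracted. Normalization is described both as to total tags and as to tags within regions, and the regularised log of DESeq2 shrinks values with few tags within each region. RNA counts were deposited as raw reads per gene. Columns with the authors' fold changes and p-values for their own comparisons were not used. Peak positions over input were deposited as 1 list a group, merged by the authors over its replicates.

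For ChIP, limma 3.58.1 (R 4.3.3) was fitted to all 10 libraries of an assay with a variance trend, and for RNA counts edgeR 4.0.16 was used (12 libraries, more than 10 reads in all, TMM). Calls required over 1.5-fold change (0.585 on the log2 scale) with p under 0.05 after Benjamini-Hochberg adjustment. For ChIP, limma's standard errors follow the sign ±. For RNA it is followed by an approximate standard error, the absolute log2 fold change divided by the square root of edgeR's F statistic. pSer2 Pol2 was counted once a gene, by the called region with the greatest change or otherwise the highest mean. RNA libraries held 3956379 to 7777219 reads and pSer2 Pol2 libraries 4938473 to 9326927 tags. The fits were tested on simulated data.

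Named regions were the 15 with the largest rise, the 5 with the largest fall, up to 12 raised near listed genes, up to 12 peaks of the NADIR_180 list without a VEH peak, 3 on each side of the threshold, the 5 raised with the smallest difference from PEAK_140 and the 5 highest VEH peaks. RNA and pSer2 Pol2 were read at the nearest genes of the regions with the largest rise and of those near listed genes and at up to 10 others by RNA fold change. Members and lists were chosen with earlier results of these data known. Alternatives changed the libraries fitted, the centring, the trend, the thresholds and the replicate block, and left out each library. DESeq2 1.42.0 was an alternative for RNA. No rn6 genome was used here, so that motifs were not counted in the regions.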

Additional observations from a re-analysis of the deposited data

How the results depend on the processing

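Calls at NADIR_180 depended on the spread borrowed from other groups and on the centring. With the libraries of the groups compared alone, 0 regions were raised and 0 lowered by limma (392 higher and 74 lower at unadjusted p below 0.05), and with each library centred on its median 0 and 0 (227 and 228). Centred on the VEH peak regions, 2845 were raised, 0 lowered (0 at unadjusted p below 0.05), 1611 of the raised were lower than at PEAK_140 and 0 lower than at CONS_180, the median difference from VEH was 4.30 and that between the nadir libraries reversed to -0.59. Those regions had their own pattern across libraries, as described above. Quantile normalization, which makes all libraries alike in distribution, gave 64 raised (63 shared), 67 lowered, 1 and 1, with medians of 0.0673 and, reversed, -0.12. Without a variance trend 139 raised regions were lower than at CONS_180. Over the regions above the median level 4 were lowered and the nadir libraries differed by 1.12. At an adjusted p below 0.01 the counts were 146, 5, 122 and 98. Fits of VEH, PEAK_140 and NADIR_180 alone, chosen after seeing the data, gave 72, 50 and 64, and without VEH peak regions 2 were lowered. Leaving out 1 library at a time gave 215 (CONS_180 replicate 1) to 745 (NADIR_180 replicate 2) raised and 4 (VEH replicate 1) to 56 (CONS_140 replicate 25) lowered regions, 167 to 544 lower than at PEAK_140, 111 to 368 lower than at CONS_180, medians of 0.30 to 1.34, 26 to 39 nearest genes with raised RNA and 0 to 0 with changed pSer2 Pol2. Where no cause is given it was not tested.

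With the replicate block 262 regions were raised and 9 lowered, 238 and 197 of the raised were lower than at PEAK_140 and CONS_180, 38 nearest genes had raised RNA and 0 changed pSer2 Pol2. The numbers did not pair the libraries, since deviations of same-numbered libraries correlated at -0.02 between PEAK_140 and NADIR_180, at -0.03 between CONS_180 and NADIR_180 and at -0.04 to 0.06 between the RNA groups. Of 35 named regions, 25 were called without each NADIR_180 and VEH library in turn, and none changed direction under any alternative run. Nearest genes with raised RNA numbered 42 by DESeq2, 47 without the low-count filter and 39 without a fold threshold, and 1 nearest gene had changed pSer2 Pol2 after median centring. The share of NADIR_180 peaks overlapping a VEH peak was 64.4% at an overlap of 50% of the peak as well. Halving the lists by score was not run, because the lists used here give no score. With 2 libraries a group and 2051977 to 6715803 tags, a region in the lower mode may hold GR below detection.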
